A study of Mus musculus with 105 samples.

Results

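The genes described are the mouse zinc finger protein (Zfp) genes of chromosomes 7, 13 and 17. They were taken from the table of raw counts as every row whose GENCODE vM21 symbol is Zfp followed by a number, that is annotated as protein coding and that lies on one of those chromosomes. The rule gave 174 genes of 394 protein-coding Zfp rows and of 53379 gene rows in all, and no measured value entered it. Chromosome 7 holds 92 of them, chromosome 13 holds 36 and chromosome 17 holds 46. Another 30 Zfp genes lie on chromosome 4 and 190 on the other chromosomes, and they serve below as the comparison.

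Most C2H2 zinc finger proteins bind DNA through a row of short fingers, each folded around a zinc ion. In many of them the fingers follow a KRAB domain, which recruits the corepressor TRIM28 (KAP1) and through it the histone H3 lysine methyltransferase SETDB1, so that the bound site, often a transposable element, is packed into heterochromatin. Their genes multiplied by tandem duplication and sit in clusters, and such clusters are themselves covered by heterochromatin marks in several cell types.

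A KRAB-like stretch was found in the annotated coding sequence of 59 of 92 genes on chromosome 7, 30 of 36 on chromosome 13 and 41 of 46 on chromosome 17, against 22 of 30 on chromosome 4 and 87 of 190 elsewhere. The median number of C2H2 fingers was 12 on chromosome 7, 11.5 on chromosome 13 and 11 on chromosome 17. Zfp36 (chromosome 7) and Zfp36l2 (chromosome 17) carry the name for another reason: they encode RNA-binding proteins with CCCH fingers that speed the decay of AU-rich mRNAs. With neighbours joined up to a gap of 1000 kb, the largest clusters were 23 genes of chromosome 13 (67038596 to 67827002 in mm10, Zfp712 to Zfp273), 23 of chromosome 17 (21008903 to 23599487, Zfp160 to Zfp13) and 15 of chromosome 7 (29768552 to 30169750, Zfp84 to Zfp146). All 23 genes of each of the clusters on chromosomes 13 and 17 have a KRAB-like stretch, as do 12 of the 15. Tandem copies share sequence: at least 10% of the 50-base windows of the transcripts also occur in another annotated gene for 18 members of chromosome 7, 14 of chromosome 13 and 12 of chromosome 17. Counts of those 44 genes are uncertain, since reads could be split between copies. Zfp935, whose windows are all shared (100%), is the 1 member with 0 counts in every library.

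The study sequenced poly(A) RNA of C57BL/6 mouse material. Cultured tumour cells labelled B16 and B16OVA (melanoma), MCA101OVA (fibrosarcoma) and MC38 (colon adenocarcinoma) each had 3 conditions: WT, a control called Ctrl, and Setdb1KO, here KO, with 6 libraries per condition in B16OVA and 3 in the others. The labels do not say how Ctrl or KO cells were made or whether they are clones, and the medium of the tumour cells held puromycin. The other libraries are 5 of primary melanocytes grown from newborn mice, 48 of 12 tissues of WT female mice (4 each) and 7 single WT libraries of a further run, B176 (B16, B16OVA, MCA101, MCA101OVA, MC38, MC38GFP and MC38OVA), which entered no fit. The labels do not say that replicates are separate cultures or animals, so p-values measure the spread between these samples, which may be technical.

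The 45 tumour libraries of the fits held 17.2 to 50.4 times 1000000 counts each. On the same scale the totals were 19.9 to 30.6 for melanocytes, 36.2 to 58.2 for run B176 and 53.6 to 254 for tissues. In 4 tumour libraries, all of 1 set of run B262, log expression relative to each gene's mean over the 45 libraries fell with exon length. The slope on log2 exon length was under -0.15 in these libraries. Summed over the 174 genes, 891 CPM (counts per 1000000 counts of the library) were found in one of them, B16OVA Ctrl replicate 2, and 872 in another, MCA101OVA Ctrl replicate 2, against 1400 to 2618 in the other Ctrl libraries of these lines. Ctrl replicate 1 labelled MC38 (run D176) had a slope of -0.1496, just inside the limit, against 0.0994 and 0.0847 in the other Ctrl libraries of that label. It held 1705 CPM over the 174 genes, against 2798 and 2615, and is not among the low-slope libraries below. Tested members have a median exon length of 4368 bases, against 3709 for all tested genes. The targeted gene Setdb1 was called lower in KO cells of 3 lines, with a log2 fold of -1.85 (SE 0.29) in B16 (edgeR, adjusted p = 9.8e-05), -1.18 (SE 0.20) in B16OVA (adjusted p = 0.000217) and -1.40 (SE 0.28) in MCA101OVA (adjusted p = 0.00749), while the libraries labelled MC38 gave -0.52 and no call. For 11 of the 12 tissues every marker of its list was highest in that tissue; in lymph node (LN) this did not hold, as Cr2 was higher in spleen and Cd3e in thymus.

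The libraries labelled MC38 that carry WT, Ctrl and KO (run D176) did not match the single MC38 libraries of run B176. Over 10971 genes, 9 of 9 libraries correlated more closely with both MCA101 libraries of run B176 (Spearman 0.826 to 0.96) than with any of its 3 MC38 libraries (0.729 to 0.828). Over the 174 Zfp genes 9 of 9 did so as well (0.825 to 0.955 against 0.722 to 0.865). The correlations are across genes, which are not independent. Keratin 8 (Krt8) stood at a mean of 404 CPM in the WT libraries labelled MC38 and at 631 in MCA101OVA of run B176, but at 0.057 to 1.77 in its MC38 libraries. Egfr ran the other way, with 0 counts in the WT libraries labelled MC38, 0.0688 CPM in MCA101 and 64.7 to 71.5 CPM in the MC38 libraries of run B176. The cells labelled MCA101OVA, a fibrosarcoma line, were also high in keratins, with WT means of 855 CPM of Krt8 and 483 CPM of Krt18. The other epithelial markers there, Epcam (0 CPM) and Cdh1 (0.0442), were near 0. So were the fibroblast genes Col1a1 (0.277), Col1a2 (0.0465), Dcn (0.0419) and Lum (0), while Pdgfra stood at 7.8 CPM. In the 3 MC38 libraries of run B176 Dcn stood at 47.1 to 226 CPM and Pdgfra at 55.8 to 414 CPM. Col1a1 (0.272 to 0.374 CPM) and Col1a2 (0.0454 to 0.274 CPM) were near 0 in them, and Lum held 0.0454 to 2.3 CPM. Their epithelial markers Epcam, Krt18 and Cdh1 were at 0.125 CPM or less. Part of the markers go against the name of either tumour type, but the lists are not uniform and do not settle it. All line names below are those of the labels. Why the sets differ was not tested, so results of these 9 libraries are given for "the libraries labelled MC38". Melanocyte libraries also held transcripts of other cells: 5 of 5 fibroblast markers were at 1 CPM or more on average, summing to 123 to 13100 CPM, as were 3 of 6 immune markers, summing to 193 to 4570 CPM. In any bulk sample, fewer cells of a type and less RNA per cell cannot be told apart.

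**Figure D1:**
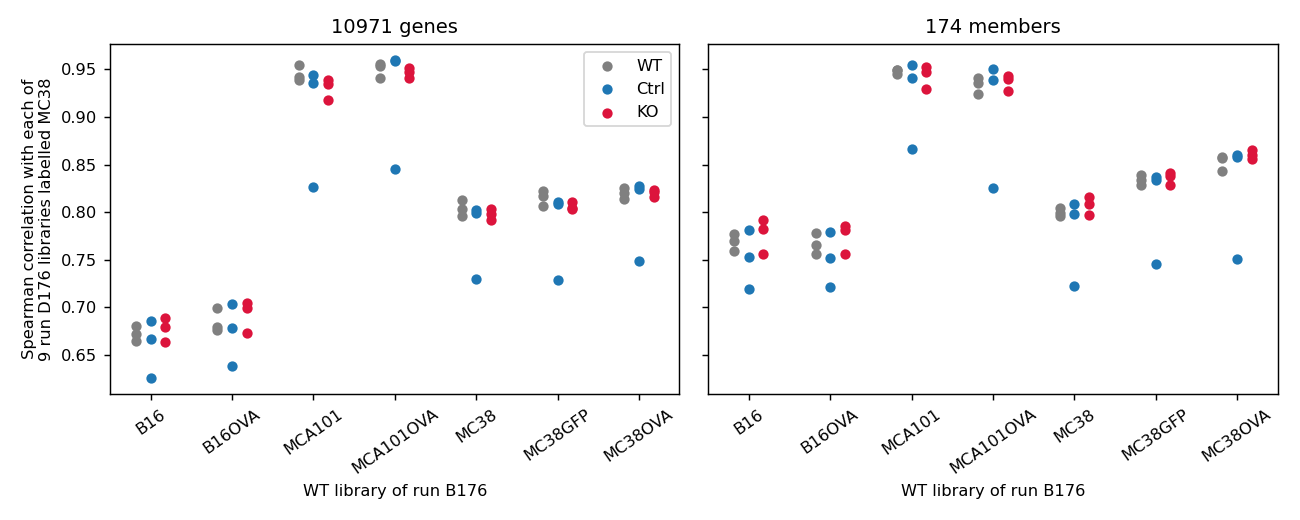
Spearman correlation (y axis) of each of 9 run D176 libraries labelled MC38 (grey WT, blue Ctrl, red KO) with 7 WT libraries of run B176 (x axis), over 10971 genes (left) and the 174 Zfp genes (right). In both panels the points over MCA101 and MCA101OVA are the highest for 9 of 9 libraries.

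The sequences upstream of 5 members on which later results turn are shown here to let their CpG content be compared. RefSeq windows (GRCm38.p6) were found for 155 of the 174 genes, and the 250 bases before the annotated start are printed 5′ to 3′ on the gene's strand, with CpG dinucleotides in capitals. Zfp941 (chr7:140822179-140822428, minus strand) and Zfp820 (chr17:21845760-21846009, minus strand) were near 0 in the B16 lines and present in MCA101OVA. Zfp108 (chr7:24254544-24254793, plus strand) was near 0 in MCA101OVA and the libraries labelled MC38, and Zfp983 (chr17:21650361-21650610, plus strand) in the latter. Zfp110 (chr7:12834511-12834760, plus strand) was present in every group.
Zfp941: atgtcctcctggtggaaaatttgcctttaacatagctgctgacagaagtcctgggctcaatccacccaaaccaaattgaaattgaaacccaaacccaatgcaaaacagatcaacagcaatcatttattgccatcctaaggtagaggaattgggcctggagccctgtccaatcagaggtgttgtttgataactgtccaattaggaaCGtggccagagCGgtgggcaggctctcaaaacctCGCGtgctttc
Zfp820: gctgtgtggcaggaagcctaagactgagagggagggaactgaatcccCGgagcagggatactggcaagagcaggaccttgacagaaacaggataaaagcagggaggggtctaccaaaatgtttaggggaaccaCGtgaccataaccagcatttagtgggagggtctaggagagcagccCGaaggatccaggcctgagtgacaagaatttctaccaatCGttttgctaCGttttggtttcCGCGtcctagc
Zfp108: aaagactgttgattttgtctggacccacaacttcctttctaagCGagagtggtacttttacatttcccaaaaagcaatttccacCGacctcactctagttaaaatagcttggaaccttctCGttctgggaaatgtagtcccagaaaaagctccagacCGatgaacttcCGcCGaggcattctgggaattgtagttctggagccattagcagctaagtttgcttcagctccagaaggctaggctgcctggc
Zfp983: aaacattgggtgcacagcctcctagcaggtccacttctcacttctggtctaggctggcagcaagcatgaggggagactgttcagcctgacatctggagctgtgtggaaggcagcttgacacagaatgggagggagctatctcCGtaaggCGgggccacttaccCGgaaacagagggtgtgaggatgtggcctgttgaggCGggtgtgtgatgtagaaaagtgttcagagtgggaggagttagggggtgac
Zfp110: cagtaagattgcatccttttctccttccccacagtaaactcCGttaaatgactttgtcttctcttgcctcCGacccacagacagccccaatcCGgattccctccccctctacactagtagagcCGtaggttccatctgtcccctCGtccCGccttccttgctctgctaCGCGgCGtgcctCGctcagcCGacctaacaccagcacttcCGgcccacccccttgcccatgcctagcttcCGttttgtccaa
The windows of Zfp941, Zfp820, Zfp108, Zfp983 and Zfp110 hold 4, 7, 6, 4 and 13 CpG in that order, against a median of 9 over the 155 matched members and 6 over all 32851 RefSeq windows. The ratio of observed to expected CpG was 0.288, 0.426, 0.448, 0.226 and 0.797. Of the 13 matched members that had a WT mean under 0.1 CPM in at least 1 line and averaged at least 1 CPM in 6 or more tissues (described further on; Zfp941, at that level in fewer tissues, is not among them), 2 reached a ratio of 0.6 (15.4%), against 68 of 142 other members (47.9%) and 34.0% of all windows, a description with no test. By chromosome, 53.6% of the matched members of chromosome 7 reached it, 33.3% of chromosome 13 and 36.6% of chromosome 17. The letters CCAAT, searched on both strands, were in 45.8% of the members' windows and 33.8% of all windows, and TATAAA in 5.16% and 12.4%. These are matches of letters and not measured binding sites. For each member the window nearest the 5′ end of its gene model was taken, while all RefSeq windows were counted with no such choice. The members' windows and the full list were thus not chosen alike.

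Levels of different members were compared per kilobase of exon (CPM per kb). Across the 12 tissues the highest means on chromosome 7 were those of Zfp36 (27.7), Zfp579 (12.8) and Zfp146 (12.4). On chromosome 17 Zfp36l2 (45.8) and Zfp598, which encodes an E3 ligase that marks collided ribosomes (23.9), led, followed by Zfp944 (6.52). On chromosome 13 the order was Zfp131 (8.28), Zfp346 (6.98) and Zfp825 (6.23). These leaders are mostly genes outside the KRAB family. In the tumour WT groups they were Zfp428 (15.5), Zfp110 (14.4) and Zfp146 (14.4) on chromosome 7, Zfp346 (16.9), Zfp131 (13.5) and Zfp367 (9.35) on chromosome 13, and Zfp36l2 (27.1), Zfp598 (25.8) and Zfp948 (9.88) on chromosome 17. Of these 13 genes, 4 have a KRAB-like stretch: Zfp110, Zfp825, Zfp944 and Zfp948. On the CPM scale, 133 of the 174 members averaged 1 CPM or more in all 12 tissues and 5 stayed under 1 CPM in all 12.

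Whether loss of SETDB1 changes the Zfp genes was asked by comparing KO with Ctrl in each line. Of the 163 members that passed the filter on low counts, 0 were called in B16 (edgeR, adjusted p under 0.05; 0.69% of the 16809 tested genes were), 1 in B16OVA (1.05% of all genes), 0 in MCA101OVA (0.345%) and 1 in the libraries labelled MC38 (0.464%). These shares of members are near the share of all genes. Of 26 tested Zfp genes of chromosome 4, 7, 9, 3 and 2 were called in the same fits, all higher in KO. Those counts moved with the setting: with the KO and Ctrl groups alone in the fit they were 0 of 20, 3 of 18, 0 of 18 and 0 of 18, and with Ctrl and WT together 9, 9, 11 and 4 of 26. Of the 161 tested Zfp genes on the remaining chromosomes, 0, 0, 0 and 1 were called. At an unadjusted p under 0.05, the members numbered 1, 10, 17 and 2 of 163 in B16, B16OVA, MCA101OVA and the libraries labelled MC38, or 0.613, 6.13, 10.4 and 1.23%, against 2.64, 7.38, 5.1 and 2.67% of all genes. DESeq2 called 0, 2, 1 and 0 members.

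**Figure D2:**
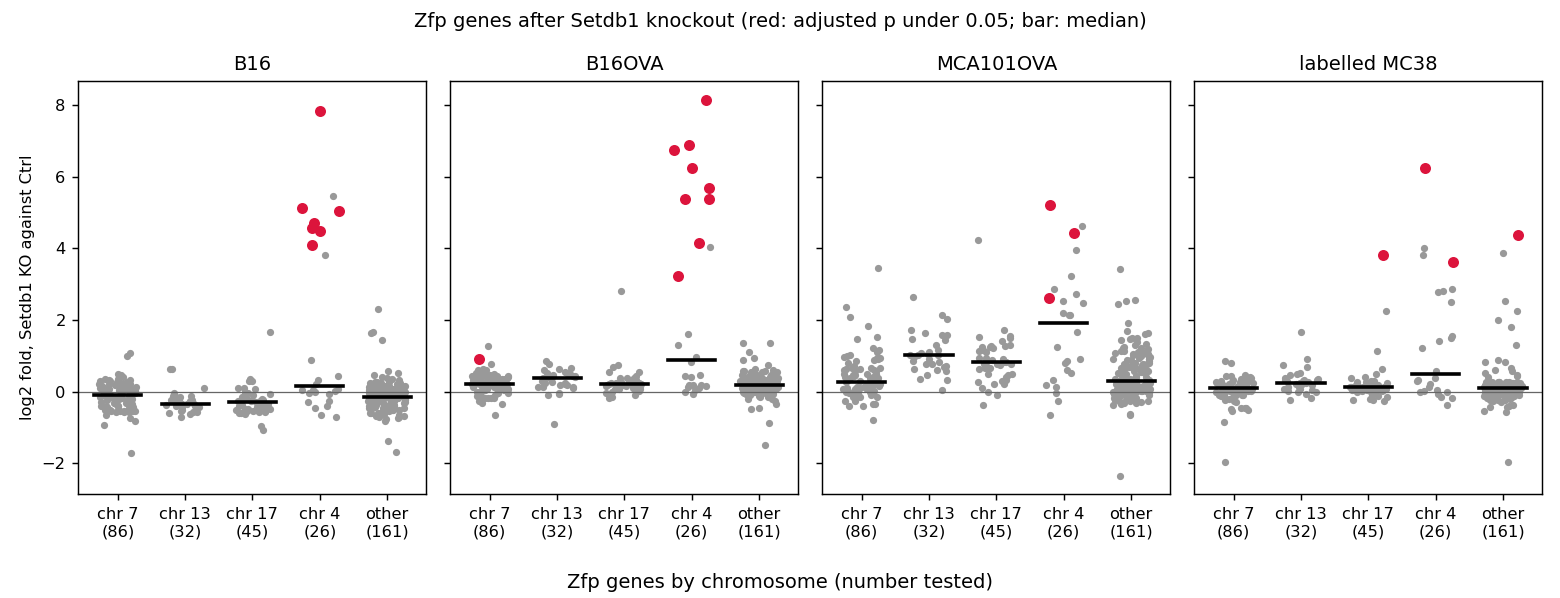
Log2 fold of KO against Ctrl (y axis) for the tested Zfp genes, by chromosome (x axis, number tested in brackets) and line (panels); red points had an edgeR adjusted p under 0.05 and black bars are medians. Red points lie on chromosome 4 in all 4 panels; on chromosomes 7, 13 and 17 there are 2, Zfp110 in B16OVA and Zfp983 in the libraries labelled MC38.

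The member called in B16OVA was Zfp110, of chromosome 7 (12834761 to 12850577, plus strand), which encodes a protein with a KRAB-like stretch and 6 C2H2 fingers. It stood at 56.3, 20.1, 37.8, 82.6, 57.5 and 75.8 CPM in the 6 Ctrl libraries and at 78.1, 129, 63, 117, 156 and 102 CPM in the 6 KO libraries, both from replicate 1 to 6. The lowest KO values overlap the highest Ctrl values. The 6 WT libraries held 31.3 to 79 CPM. Zfp110 rose by 0.91 (SE 0.22) on the log2 scale (edgeR, adjusted p = 0.0258). In the other lines its log2 fold was 0.17 (B16), 0.40 (MCA101OVA) and 0.29 (labelled MC38), none of them called. The adjusted p of Zfp110 missed the threshold when Ctrl replicate 2 was left out (adjusted p = 0.129), and likewise for Ctrl replicate 3 (0.1) or Ctrl replicate 5 (0.0769), KO replicate 2 (0.155) or KO replicate 5 (0.0952) and for the low-slope libraries (log2 fold 0.78, adjusted p = 0.13). It also missed it without set T01 to T12 of run B262 (log2 fold 0.68, adjusted p = 0.11), with no run term (0.0908) and with the KO and Ctrl groups alone in the fit (0.173).

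The member called in the libraries labelled MC38 was Zfp983, of chromosome 17 (21650624 to 21664966, plus strand), a gene with a KRAB-like stretch and 11 fingers, 9.83% of whose windows are shared with another gene. It was near 0 in those cells, with 0.0295, 0 and 0.0292 CPM in the WT and 0.0414, 0 and 0 CPM in the Ctrl libraries, and reached 0.442, 0.182 and 0.0582 CPM in the KO libraries. The sums over 3 libraries are 2, 1 and 15 counts. KO replicates 1 and 2 were above each Ctrl library. KO replicate 3 (0.0582 CPM) and Ctrl replicate 1 (0.0414 CPM) held 1 count each, so their order reflects only the library totals. All KO libraries were under the 0.482 to 6.13 CPM of the libraries of the other 3 lines. The log2 fold was 3.82 (SE 0.93, edgeR, adjusted p = 0.0484), a value that depends on the prior count for a gene with 1 Ctrl count. For Zfp983 the threshold was missed when Ctrl replicate 2 was left out (adjusted p = 0.449), and likewise for Ctrl replicate 3 (0.367), KO replicate 1 (1) or KO replicate 2 (0.0693), and with DESeq2 (0.198). It was missed too with no filter on low counts (0.0534), with a filter of 1 CPM (0.0513), with no run term (0.091), without the low-slope libraries (0.0722) and without set T01 to T12 of run B262 (0.116). Without Ctrl replicate 1, which held 0.0414 CPM, it stayed called with a log2 fold of 5.83.

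Zfp78, a KRAB-like gene with 11 fingers of chromosome 7 (6363280 to 6382605, plus strand), had the highest log2 fold of the tested members with at least 1 CPM in B16 and in B16OVA, and missed the threshold in all 4 lines. In B16OVA it stood at 0.558, 0.697, 0.341, 0.428, 1.07 and 0.981 CPM in Ctrl and at 1.32, 1.1, 1.68, 2.32, 2.64 and 2.19 CPM in KO, so that these groups do not overlap, while its 6 WT libraries held 0.142 to 1.21 CPM. In MCA101OVA the Ctrl libraries held 0.175, 0.502 and 0.229 CPM and the KO libraries 2.06, 1.03 and 1.25 CPM, again without overlap. The log2 folds were 1.28 (SE 0.36, edgeR, adjusted p = 0.0861) in B16OVA, 2.09 (SE 0.54, adjusted p = 0.111) in MCA101OVA, 1.00 in B16 and 0.12 in the libraries labelled MC38 (adjusted p = 1 in both). DESeq2 called it in B16OVA (adjusted p = 0.0136) and MCA101OVA (0.0341), as did edgeR without the low-slope libraries (0.0175 and 0.0174).

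**Figure D3:**
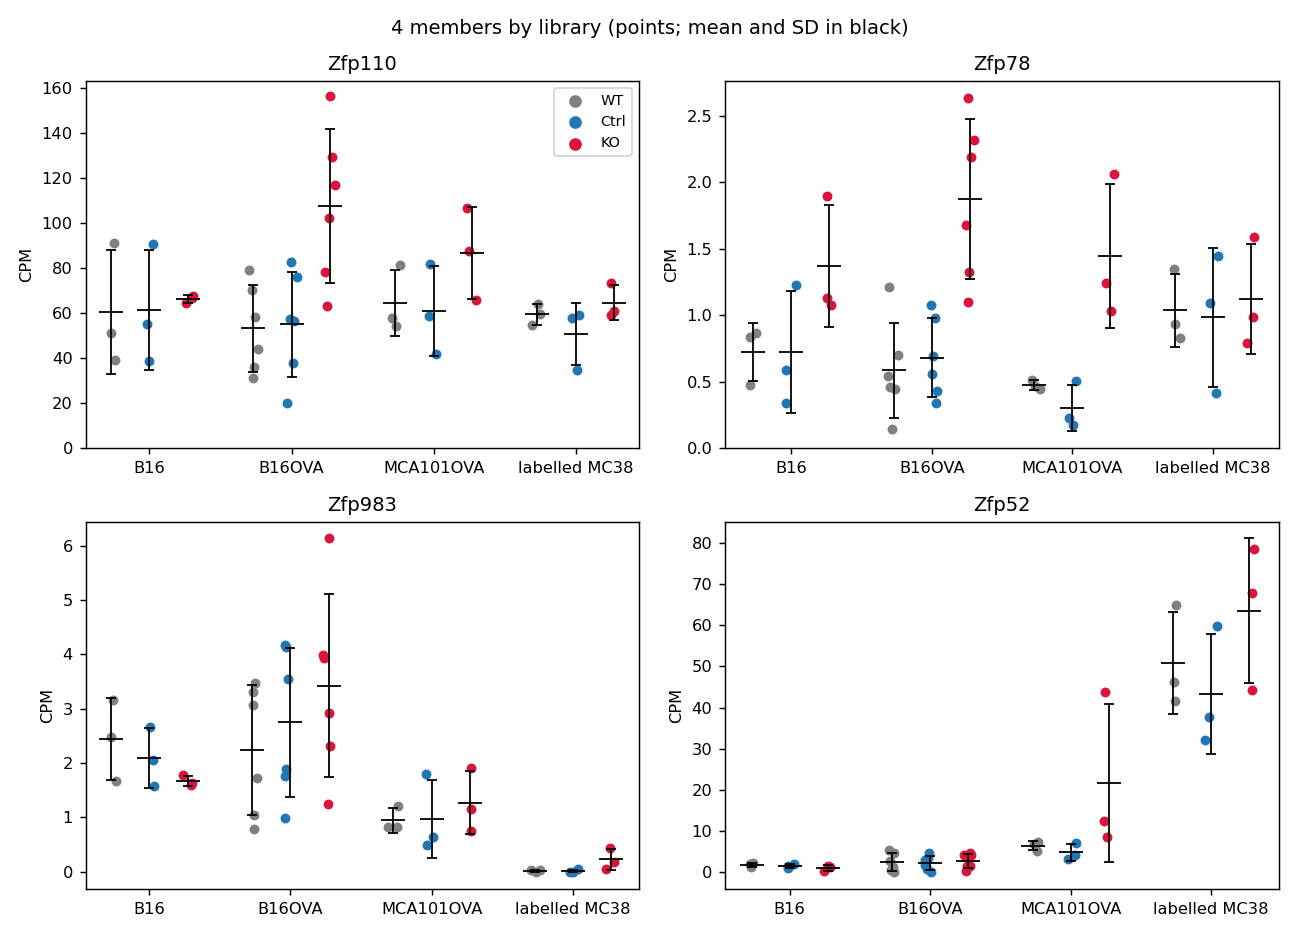
CPM (y axis) of Zfp110, Zfp78, Zfp983 and Zfp52 in each library of the 4 lines (x axis; grey WT, blue Ctrl, red KO), with the group mean and SD in black. The 6 KO points of Zfp78 in B16OVA and the 3 in MCA101OVA lie above the Ctrl points; Zfp983 stays under 0.5 CPM in the libraries labelled MC38.

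Zfp575 (chromosome 7, 6 fingers, no KRAB-like stretch) did not pass the filter on low counts. It had 0 counts in the 3 Ctrl libraries labelled MC38 and 20 in KO (0.353, 0.409 and 0.175 CPM), and 0 and 19 counts in MCA101OVA (0.206, 0.0235 and 0.306 CPM in KO). With no filter it was called in the libraries labelled MC38, where Zfp983 then was not (edgeR, adjusted p = 0.0382), and likewise without the low-slope libraries (0.0189) and without set T01 to T12 of run B262 (0.00895). In MCA101OVA it was called, of the settings run, only without KO replicate 2 (edgeR, adjusted p = 0.0374). It was chosen for mention after its values were seen.

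By chromosome, the medians of the tested members' log2 folds differed between lines and moved with the setting, and nearly all members were without a call. In B16 the median was -0.10 on chromosome 7 (86 tested), -0.33 on chromosome 13 (32) and -0.28 on chromosome 17 (45), and 48 of the 163 members were above 0. In B16OVA the medians were 0.22, 0.38 and 0.20 in the same order, and in the libraries labelled MC38 0.09, 0.24 and 0.12. In MCA101OVA they were 0.28, 1.03 and 0.83, with 32 of 32 members of chromosome 13 above 0. Over all tested genes the medians were 0.00, -0.01, 0.01 and -0.01 in B16, B16OVA, MCA101OVA and the libraries labelled MC38. The chromosome 4 medians were 0.15, 0.90, 1.91 and 0.49, and those of the other Zfp genes -0.14, 0.20, 0.29 and 0.09. Without the low-slope libraries the B16 medians of chromosomes 13 and 17 were -0.00294 and -0.0093, near 0. Other settings kept them below 0. They were -0.33 and -0.29 without set T01 to T12 of run B262, -0.20 and -0.22 with the length slope as a covariate, and -0.75 and -0.57 with WT in place of Ctrl. With the length slope of each library as a covariate the B16OVA median of chromosome 17 was 0.03. In the libraries labelled MC38 that covariate gave a median of -0.00791 over the members and -0.14 on chromosome 17, a turn of sign, and WT in place of Ctrl gave 0.00699 over the members. Members with a KRAB-like stretch (122 tested) had medians of -0.27, 0.23, 0.78 and 0.14 in B16, B16OVA, MCA101OVA and the libraries labelled MC38, and those without one (41 tested) 0.03, 0.19, 0.27 and 0.06, so the sign of the difference was not the same in all lines.

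Summed levels of the 2 conditions overlapped in MCA101OVA. The 36 members of chromosome 13 summed to 137, 97.6 and 475 CPM in the 3 Ctrl libraries and to 565, 184 and 476 CPM in the KO libraries, so Ctrl replicates 1 and 2 and KO replicate 2 were low. With the length slope of each library as a covariate, the median fell from 0.62 to 0.27 over the 163 members and from 1.03 to 0.48 on chromosome 13, where 29 of 32 were then above 0. On chromosome 17 it fell from 0.83 to 0.16. Other settings did not shrink it as far. Without the low-slope libraries the medians were 0.59 over the members, 0.85 on chromosome 13 and 0.66 on chromosome 17. Without set T01 to T12 of run B262 they were 0.83, 1.08 and 1.16, and with WT in place of Ctrl 0.40, 1.04 and 0.95. With single libraries left out, the median over the members ran from 0.36 (without Ctrl replicate 1) to 0.93. Unlike the sums, Zfp52 (chromosome 17, KRAB-like, 14 fingers) did not overlap, with 4.34, 3.15 and 7.1 CPM in Ctrl and 43.7, 8.61 and 12.6 CPM in KO. Its KO replicate 1 was far above the others, and its WT libraries held 5.29 to 7.44 CPM. Its log2 fold was 1.74 (SE 0.62, edgeR, adjusted p = 0.698), and with no filter on low counts it was called (1.75, adjusted p = 0.0292).

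The other members picked by the size of their log2 fold, with a mean of at least 1 CPM over the KO and Ctrl libraries of a line, were not called. Under other settings Zfp329, Zfp346 and Zfp773 were. In MCA101OVA the 2 highest log2 folds of each chromosome were those of Zfp458 (2.15, chromosome 13), Zfp329 (1.83, chromosome 7), Zfp729b (1.72, chromosome 13), Zfp763 (1.56, chromosome 17, beside Zfp52) and Zfp60 (1.49, chromosome 7). With no filter on low counts Zfp329 was called (edgeR, adjusted p = 0.0405). Zfp773 (chromosome 7), picked in the libraries labelled MC38 (0.80), had a log2 fold of 2.35 in MCA101OVA (edgeR, adjusted p = 0.174). With Ctrl and WT together it was called there (2.19, adjusted p = 0.0102). Zfp346, which encodes a protein that binds double-stranded RNA, had a median of 78.6 CPM in the 6 B16OVA Ctrl libraries (highest 135) and of 173 CPM in the 6 KO libraries (lowest 83.5), so that the groups overlap, with a log2 fold of 0.87 (edgeR, adjusted p = 0.123). It was called with the library sets as a replicate block (adjusted p = 0.00215), with no filter (0.0487), with Ctrl and WT together (0.0212) and without KO replicate 3 (0.0438). In B16 the lowest were Zfp760 (-1.06, chromosome 17) and Zfp790 (-0.81, chromosome 7). In the libraries labelled MC38 Zfp524 (-0.86, chromosome 7) was the lowest and Zfp759 (1.66, chromosome 13) the highest. Zfp57, which keeps imprinted loci methylated, had log2 folds of 0.12, 0.20, 0.28 and -0.14 in B16, B16OVA, MCA101OVA and the libraries labelled MC38. In the same order Zfp568, a KRAB protein needed in early mouse development, had 0.46, 0.65, 0.08 and 0.19, Zfp36 -0.16, 0.41, 0.49 and -0.08 and Zfp36l2 0.09, 0.27, 0.33 and 0.25.

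No member's KO effect was called different between lines. The effect of B16, of MCA101OVA and of the libraries labelled MC38 was set against that of B16OVA in the same edgeR fit, and 0 of 163 members were called in each (0%, 0.101% and 0.262% of all genes). At an unadjusted p under 0.05 there were 3, 4 and 1 such members, beside 1.48%, 2.58% and 2.8% of all genes. Ctrl against WT gave 0 called members in each of the 4 lines, with 0% of all genes called, and 0, 4, 1 and 0 members at an unadjusted p under 0.05, beside 0.619%, 3.75%, 1.77% and 2.07% of all genes. DESeq2 called 0 members in each of these comparisons too.

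Of 13 tested genes that act with KRAB proteins, 2 were called in at least 1 line: Setdb1 and Atf7ip. Atf7ip, the partner that stabilises SETDB1, rose in B16OVA KO by 1.44 (SE 0.26) on the log2 scale (edgeR, adjusted p = 0.000635). Resf1, a SETDB1 partner in retroviral silencing, had log2 folds of 1.99, 2.47, 3.02 and 1.14 in B16, B16OVA, MCA101OVA and the libraries labelled MC38, and Trim28 had 0.34, -0.07, 0.24 and -0.13, none called. Zfp809, which recruits the complex to proviruses and is no member, had 0.14, 0.55, 1.03 and 0.07.

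More members were called between WT cells of different origin. B16OVA WT against melanocytes (3 and 5 libraries of run D176) gave 19 called of 166 tested members, 6 higher and 13 lower in B16OVA, or 11.4%, beside 38.7% of all tested genes. B16OVA WT against the WT libraries labelled MC38 gave 30 of 166 (20 higher, 10 lower), or 18.1% beside 33.7%, and against MCA101OVA WT 22 of 161 (13 higher, 9 lower), or 13.7% beside 35.9%. Chromosome 17, with 46 of the 174 members, held 13 of the 30 and 10 of the 22. Chromosome 13, with 36 of the 174, held 3 and 0. The counts are small and the difference between chromosomes was not tested. Between B16OVA and B16 WT, 0 of 161 members were called (edgeR, 0 at an unadjusted p under 0.05, 0 with DESeq2; 0.0068% of all genes were called). Of the 30 members called against the libraries labelled MC38, 19 (63.3%) were also called against MCA101OVA, which is 86.4% of those 22, and 19 of 19 had the same direction. Over all genes called, the shared genes were 69.4% of the former list and 71% of the latter, so nothing particular to the members is read from the overlap. These comparisons use separate B16OVA libraries, while those with melanocytes and with the libraries labelled MC38 share theirs.

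Several of these members were present in one line and near 0 in another. Zfp941 (KRAB-like, 9 fingers, chromosome 7) had 0 to 0.0319 CPM in the 9 B16 and B16OVA WT libraries, 8.25, 7.27 and 7.2 CPM in MCA101OVA WT and 10.1, 9.93 and 6.8 CPM in the WT libraries labelled MC38. Its level in MCA101OVA was at least 256-fold higher than in B16OVA, where it had 0 counts in the 3 libraries of that fit (edgeR, adjusted p = 8.88e-05). The next gene had the same pattern. Zfp820 (KRAB-like, 12 fingers, chromosome 17) had 0 to 0.128 CPM in B16 and B16OVA WT, 4.37, 1.13 and 2.54 CPM in MCA101OVA and 8.95, 13.8 and 8.61 CPM in the libraries labelled MC38. It was called lower in B16OVA than in melanocytes too, where it held 0.403 to 6.73 CPM (edgeR, adjusted p = 0.00172). Zfp296, a gene linked to pluripotency, stood at 0.233 to 1.02 CPM in B16OVA and at 12.3, 21.8 and 21.1 CPM in MCA101OVA (log2 fold -5.37, SE 0.56, edgeR, adjusted p = 6.7e-05). The imprinting gene Zfp57 was called lower in B16OVA than in MCA101OVA (log2 fold -3.39) and than in the libraries labelled MC38 (-3.44), with WT means of 6.17, 49 and 79.8 CPM.

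The reverse pattern was led by Zfp536, a transcription factor of neural cells. It held 3.27 to 16.5 CPM in B16OVA WT and 4.78 to 36.7 CPM in melanocytes, but 1 count in all in MCA101OVA WT and 1 in the WT libraries labelled MC38. The ratio of pooled CPM in B16OVA to that in MCA101OVA was 879 (95% exact interval 157 to 34800, counting error only; edgeR, adjusted p = 2.07e-05). Zfp418, Zfp799 and Zfp677, all KRAB-like, were called higher in B16OVA than in both. Zfp418 (14 fingers) had 0 counts in the WT libraries labelled MC38 against a pooled 1.45 CPM in B16OVA, at least 48.4-fold higher. Zfp677 had 0 counts there against a pooled 4.89 CPM, at least 163-fold higher, though the 6 B16OVA WT libraries ran from 0.0474 to 6.79 CPM.

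A stretch of chromosome 7 held 3 such genes. Zfp114, Zfp109 and Zfp108 lie between 24175060 and 24262445, inside the cluster of 14 members from Zfp180 to Zfp526. Their WT means were 1.83, 3.77 and 1.05 CPM in B16OVA, 0, 0.0341 and 0.0419 CPM in MCA101OVA and 0.0197, 0.0203 and 0.0196 CPM in the libraries labelled MC38, and all 3 were called in both comparisons. Their neighbours kept a level of several CPM. Zfp111, between Zfp114 and Zfp109, had 18.4, 6.39 and 10.7 CPM in the same order, and Zfp93, next to Zfp108, had 10.4, 6.77 and 3.97 CPM, although Zfp111 was called higher in B16OVA as well (log2 fold 1.14 against the libraries labelled MC38 and 1.11 against MCA101OVA) and Zfp93 in the former comparison (1.73). Zfp114 shares 29.5% and Zfp108 11.3% of windows with other genes, so their counts are uncertain.

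Against melanocytes, the genes higher in B16OVA were led by Zfp114 (log2 fold 2.43, edgeR, adjusted p = 0.0133), Zfp428 (2.05, adjusted p = 0.00467) and Zfp473 (1.86, adjusted p = 0.0096). The call of Zfp114 was lost without B16OVA WT replicate 4 (adjusted p = 0.0526) or 6 (0.0548), and that of Zfp473 without replicate 6 (0.0646). Zfp428 stood at 18.7 to 58.5 CPM in B16OVA WT and at 5.59 to 12.7 CPM in the 5 melanocyte libraries, without overlap. Without B16OVA WT replicate 5 its log2 fold was 1.03 (adjusted p = 0.0305). Among the lower genes, Zfp583 had 0 counts in B16OVA against 0.388 to 1.8 CPM in melanocytes, at least 37.4-fold lower, and Zfp36l2 had a log2 fold of -1.98 (edgeR, adjusted p = 0.00915). The part of the fibroblast and immune transcripts of the melanocyte libraries in these differences was not tested.

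Members near 0 were then counted across lines. Under a mean of 0.1 CPM in WT B16 had 15 members, B16OVA 14, MCA101OVA 19 and the libraries labelled MC38 20. Of these, 5, 5, 10 and 11 averaged at least 1 CPM in 6 or more of the 12 tissues. Both limits were chosen after the values were seen; with 0.05 CPM the numbers were 5, 4, 6 and 11, and with 0.2 CPM 5, 5, 11 and 13. Zfp583, Zfp459, Zfp366 and Zfp811 were on the list in all 4 lines. Zfp366, a corepressor known from dendritic cells, reached 64 to 69.6 CPM in lung and 44.9 to 56.8 CPM in lymph node. Zfp583 had 0 counts in all 45 tumour libraries of the fits and in the B16, B16OVA, MCA101 and MCA101OVA libraries of run B176, and 1.85 to 7.15 CPM in the 3 MC38 libraries of that run.

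Most of these genes were near 0 in KO as well. The KO mean reached 0.1 CPM for 0 of 5 in B16, 1 of 5 in B16OVA (Zfp811, 0.112 CPM), 2 of 10 in MCA101OVA (Zfp108, 0.12, and Zfp54, 0.216 CPM) and 2 of 11 in the libraries labelled MC38 (Zfp456, 0.119, and Zfp983, 0.227 CPM). Zfp820, at 0.0132 CPM in B16 WT, had 0.00844 CPM in KO, and in B16OVA 0.0253 and 0.0223 CPM. Zfp418, Zfp536 and Zfp677 had 0, 0 and 1 counts over the 3 KO libraries labelled MC38.

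**Figure D4:**
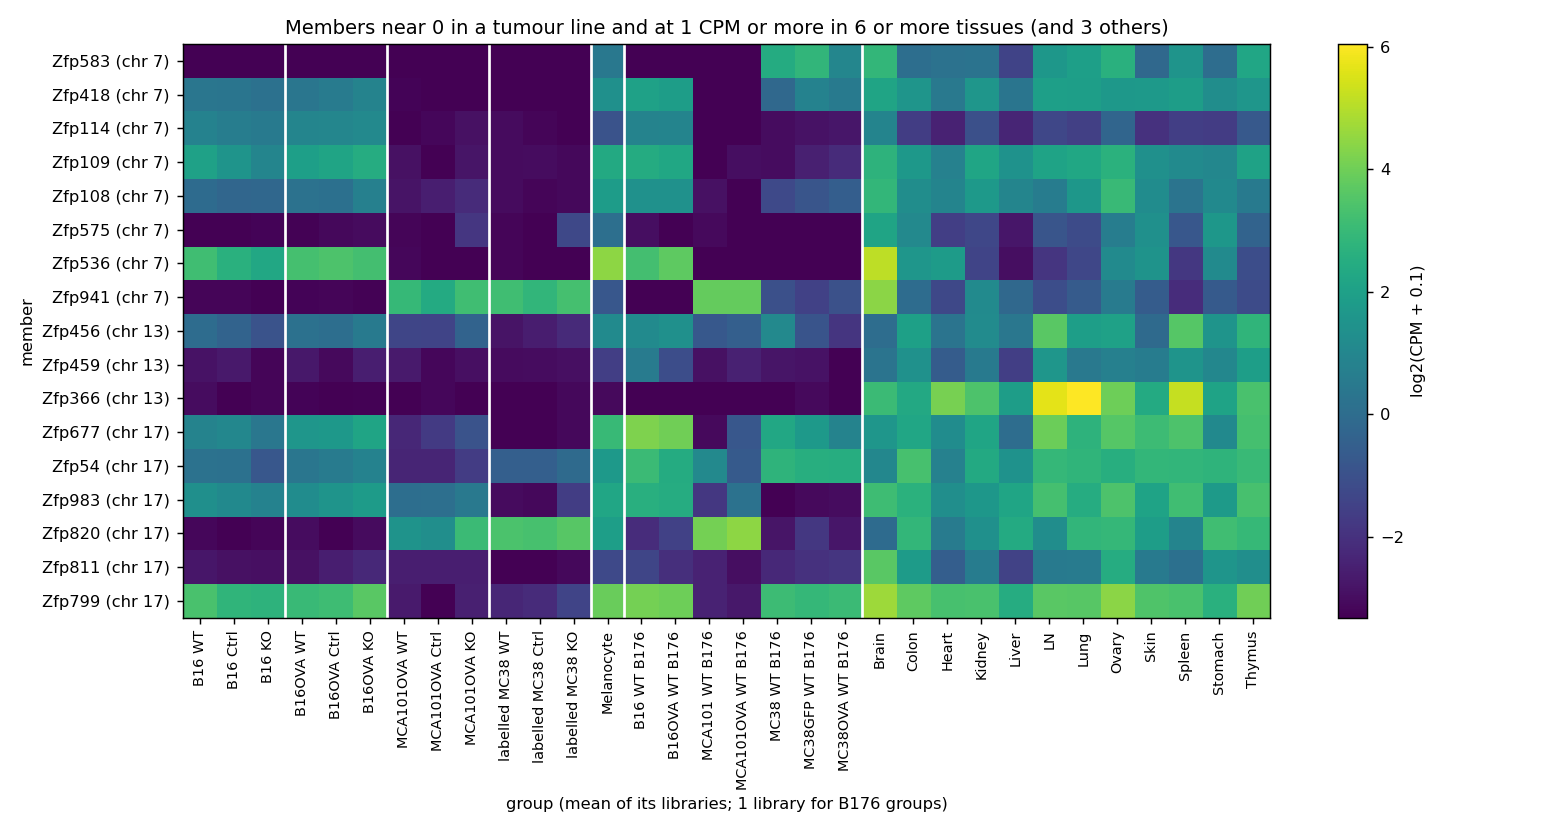
Mean log2(CPM + 0.1) (colour) of the 14 members under 0.1 CPM in WT cells of at least 1 tumour line and at 1 CPM or more in 6 or more tissues, with Zfp114, Zfp575 and Zfp941 added, in each group (x axis; 4 lines by condition, melanocytes, run B176 and 12 tissues). Zfp583 is dark in all 12 groups of the 4 lines, and Zfp820 is dark in B16 and B16OVA under WT, Ctrl and KO alike.

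Each healthy tissue was compared with the mean of the other 11 (48 libraries, edgeR). A gene was called at an adjusted p under 0.05 and an absolute log2 fold of at least 1, and 98 of the 172 tested members (57.0%) were called in at least 1 tissue, beside 87.4% of all tested genes. Brain had the most called members, 32 higher and 18 lower, or 29.1%, beside 49% of all genes. Spleen had 22 higher and 18 lower (23.3% beside 39.3%), liver 12 and 26 (22.1% beside 43.1%), thymus 18 and 16 (19.8% beside 43.4%) and lymph node 21 and 11 (18.6% beside 34.7%). Heart had 15 and 15 (17.4% beside 35.2%), skin 5 and 16 (12.2% beside 31.5%), stomach 4 and 14 (10.5% beside 31.9%) and ovary 13 and 2 (8.72% beside 29.1%). Colon had 6 and 7 (7.56% beside 30.3%), kidney 6 and 5 (6.4% beside 31.9%) and lung 5 and 3 (4.65% beside 31.6%). In each of the 12 tissues the share of members called was below that of all tested genes, a description with no test.

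Summed over the 174 members, lymph node had the highest level, 3890 ± 275 CPM (SD, n = 4), then thymus (3710 ± 381), spleen (3509 ± 435) and ovary (3186 ± 350). Liver had the lowest, 1227 ± 77.4 CPM, then heart (1440 ± 199) and stomach (1493 ± 244). Neighbours in the order from lymph node to ovary differ by less than their SDs, as do heart and stomach. Of the 174 members, 43 had their highest mean CPM in lymph node, 41 in brain and 40 in thymus, and 86 had their lowest in liver. These sums and ranks are shares of a library, of which Alb took 97600 CPM in liver and Pgc 105000 CPM in stomach. The part of such genes in the ranks was not tested. In the edgeR fit, with TMM, members were not uniformly lower in liver. At an adjusted p under 0.05 alone, 23 were higher and 36 lower on chromosome 7, 11 and 11 on chromosome 13, and 22 and 13 on chromosome 17. The RNA-binding gene Zfp36 added 197 CPM to the sum in lymph node.

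The calls are given here by chromosome. On chromosome 7, brain had 25 members called higher and 5 lower of 92 (median log2 fold 0.44), while on chromosome 13 it had 1 higher and 6 lower of 34 and on chromosome 17 6 and 7 of 46. On chromosome 13 lymph node had 7 called higher and 0 lower (median 0.62), spleen 9 and 0 (0.61) and thymus 5 and 0 (0.57), and skin had 0 higher and 7 lower (-0.57). The medians over all tested genes in lymph node, spleen, thymus and skin were -0.10, -0.14, 0.10 and -0.09, and those of the Zfp genes of chromosome 4 were 0.62, 0.63, 0.38 and -0.52. The difference between chromosomes was not tested.

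**Figure D5:**
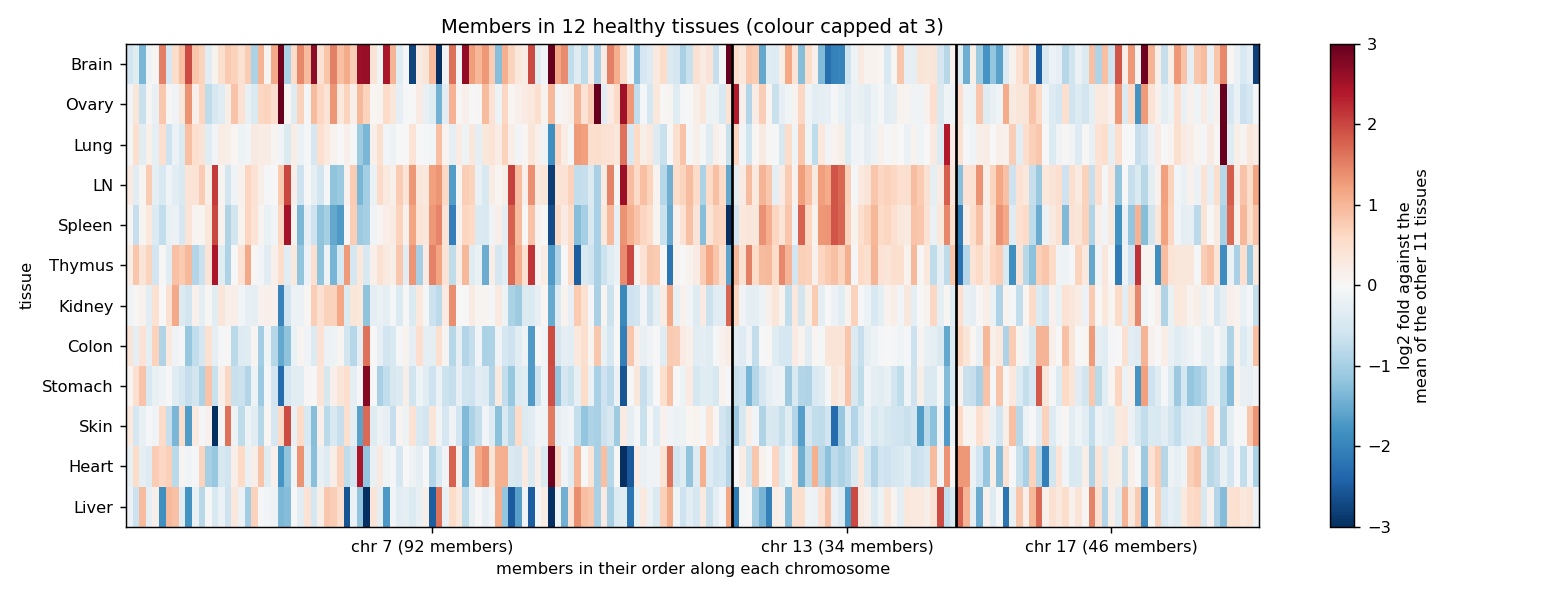
Log2 fold of each tissue (y axis) against the mean of the other 11 (colour, capped at 3) for the 172 tested members in their order along chromosomes 7, 13 and 17 (x axis). Most of the chromosome 13 block is red in lymph node (LN), spleen and thymus and blue in skin, and the brain row holds 25 called higher members on chromosome 7.

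The cluster of 23 genes on chromosome 13 held 5 of the 7 members called higher in lymph node and 6 of the 9 in spleen. It held 3 of the 5 called higher in thymus and 4 of the 7 called lower in skin. These shares are near its own, 23 of the 36 members of that chromosome. At an adjusted p under 0.05 (edgeR) with no limit on the fold, 28 members of chromosome 13 were higher in lymph node, 19 of them in the cluster. The numbers were 28 and 19 in spleen, 26 and 17 in thymus, and 28 and 20 lower in skin. The pattern was thus not particular to the cluster. Of the 22 tested members of the cluster 21 had a positive log2 fold in lymph node, 21 in spleen and 20 in thymus, and 22 of 22 were negative in skin. Brain was mixed, with 12 of 22 positive and a median of 0.05: 1 member was called higher and 5 lower, Zfp455, Zfp595, Zfp953, Zfp456 and Zfp429. Zfp456 had log2 folds of 1.88 in lymph node, 1.89 in spleen, -2.02 in brain and -2.30 in skin, and Zfp429 had 1.73, 1.75, -1.98 and -1.14. Mean levels of Zfp456 were 12.4 CPM in lymph node, 11.8 in spleen, 0.915 in brain and 0.836 in skin. Zfp456 and Zfp429 share 18.1% and 25% of windows, so their counts are uncertain. The cluster of 23 on chromosome 17 was mixed, with 16 of 23 positive in lymph node, 13 in thymus and 9 in skin.

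Among called members with at least 1 CPM in the tissue, Zfp536 had the highest log2 fold, in brain, with 33.4, 36.6, 26.6 and 40.4 CPM there and tissue means of 0.0274 (Liver) to 3.46 (Heart) elsewhere (log2 fold 5.67, SE 0.16, edgeR, adjusted p = 4.6e-29). Zfp941, near 0 in the B16 lines, was also highest in brain, at 23.1, 25.6, 24.3 and 12.4 CPM, and at 0.127 (Spleen) to 2.11 (Kidney) elsewhere (log2 fold 5.07, adjusted p = 8.28e-25). Zfp57 was high in ovary (19.3, 48.6, 36.8 and 73.6 CPM, log2 fold 3.00) and lung (33.5, 35.5, 33.8 and 38.8 CPM, log2 fold 2.99). The ovary libraries varied more widely than the lung libraries. Zfp773 (chromosome 7, KRAB-like) was called higher in thymus (11.4 CPM, log2 fold 2.44), lymph node (8.9 CPM, 2.09) and spleen (8.09 CPM, 2.01) and had 0.286 CPM in skin. Zfp366 was called higher in lung (log2 fold 2.39, edgeR, adjusted p = 5.88e-15). Zfp541, a gene of meiotic germ cells, was highest in ovary at 0.32, 1.49, 0.847 and 1.36 CPM (log2 fold 3.67). Zfp296 was higher in spleen (15.6 CPM, 2.49) and skin (11.2 CPM, 1.96).

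The leading genes of the remaining tissues were less extreme. Heart was led by Zfp536 (log2 fold 2.94) and Zfp428 (2.44), colon by Zfp536 (1.95) and Zfp575 (1.62), and stomach by Zfp575 (2.75, 1.55 to 4.51 CPM) and Zfp536 (1.94). Liver was led by 2 chromosome 13 genes, Zfp874a (24.5 CPM, log2 fold 1.98) and Zfp825 (15.4 CPM, 1.95), the latter with 29.5% shared windows, and kidney by Zfp941 (1.72) and Zfp871 (1.44). Zfp871 was called in thymus too (log2 fold 2.17), where 1 library held 47.9 CPM and the others 9.85, 19.6 and 10.2. In lymph node Zfp82 (1.6 CPM, 2.06) followed Zfp773, with 32.6% of its windows shared. The RNA-binding genes had wide ranges: tissue means of Zfp36 ran from 5.53 (Brain) to 213 (Spleen) CPM and that of Zfp36l2 was 23.2 CPM in brain and 196 in thymus. Zfp819 had tissue means of at most 0.319 CPM.

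Further KRAB and other genes were chosen whatever their values, and apart from Zfp52, whose mean was 0.811 CPM in liver, those described next averaged at least 1 CPM in all 12 tissues. Zfp51, Zfp52, Zfp53 and Zfp54 of chromosome 17 had their highest tissue mean in thymus (21.5 CPM), ovary (20.4), spleen (24.3) and colon (10) in that order, and Zfp40 in brain (20.4). Zfp30 (15.3 CPM) and Zfp60 (39.5 CPM), of chromosome 7, were highest in brain, and Zfp110 in lymph node (66.2 CPM). Zfp369 had 65 CPM in thymus, and its other tissue means were 9.75 (Heart) to 31.5 (Spleen). Tissue means of Zfp367 were 13.6 (Liver) to 46.9 (Spleen) CPM and those of Zfp131 11.9 (Liver) to 76.2 (Thymus). Zfp568 ranged from 8.4 (Brain) to 22 (LN) CPM in tissues and stood at 28.6, 22.9, 39.2 and 43.2 CPM in the WT groups of B16, B16OVA, MCA101OVA and the libraries labelled MC38.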

How the data were processed

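Poly(A) RNA was measured in cultured tumour cells, melanocytes and tissues, in libraries made with a stranded kit, per the labels' protocols. The authors trimmed reads with Trim Galore, checked them with FastQC, aligned them with STAR to mm10 and counted them with HTSeq, per the submitters' processing notes; versions, annotation, strand setting and treatment of reads with several matches were not found in the sources read here. The deposited values are raw counts per gene, and 53274 of 53379 rows matched GENCODE vM21. The normalised table was not used.

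Genes and lists were chosen with earlier results of these data known. Groups came from the labels. CPM are counts per 1000000 counts of a library. Tests were edgeR 4.0.16 quasi-likelihood tests (R 4.3.3; TMM; filterByExpr by group; Benjamini-Hochberg adjusted p under 0.05 over all tested genes) in 4 fits: 45 tumour libraries with a run term (16809 genes), WT libraries of run D176 (11; 16020 genes), WT libraries of runs B253 and B262 (9 with a run term; 14699 genes) and tissues (48; 26242 genes; an absolute log2 fold of at least 1 was also required). DESeq2 1.42.0 and other settings were alternatives. All tests were two-sided and the script was tested on simulated data. Exact 95% intervals and the floor of 3 counts, taken over a group, cover counting error only. KRAB-like stretches and C2H2 fingers were read from coding sequences (pyhmmer 0.12.3, E-value at most 1e-05, and a finger pattern).

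Named members are those called in a KO comparison; per chromosome and line the 2 highest and 2 lowest log2 folds at 1 CPM or more; the 3 highest and 3 lowest called members per WT comparison and the 2 highest called per tissue, at 1 CPM or more; the 3 highest levels per kb per chromosome; members at 0 counts everywhere; and 20 chosen whatever their values. Part of them is named. Library numbers form sets whose KO and Ctrl libraries deviated together. Deviations of these same-set libraries from the group means correlated over 0.1 in 3 of 3 pairs in B16 (lowest 0.511), 12 of 12 in B16OVA (0.431) and 3 of 3 in MCA101OVA (0.295). With WT included, 9 of 9 pairs did so in B16 and in MCA101OVA, but 29 of 36 in B16OVA (lowest -0.553). In run D176 the set is the whole run, so its B16OVA pairs do not tell set from run. The set served as a replicate block in an alternative fit.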

Additional observations from a re-analysis of the deposited data

Results flagged for a closer look

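Summed over the 174 genes, heart replicate 3 held 1740 CPM, apart from the other 3 heart libraries, of which the lowest held 1320 CPM (group median 1350 CPM). In groups of 4 to 10 libraries, 22 checks for a library that stands apart were made, and 1 was marked. They took this sum in each group, and the CPM of Zfp110 and Zfp78 in the B16OVA groups. Chance marks about 1 check in 20.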

How the results depend on the processing

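Of the summary values recomputed under the alternatives, 963 stayed within 1.5 times or the replicate spread and 34 moved; none changed sign in a called value. Of the values of single called members, 1518 kept direction and call and 22 lost the call, those of Zfp110, Zfp983, Zfp114 and Zfp473. The number of members called in B16OVA KO (1) became 2 with no filter, 2 with DESeq2, 0 with no run term, 0 with the 2 groups alone, 2 with WT in place of Ctrl and 3 with Ctrl and WT together, and 0 to 2 without single libraries. In MCA101OVA (0) it became 2 with no filter, 1 with DESeq2, 1 without the low-slope libraries, 2 with Ctrl and WT together, 1 without set T01 to T12 of run B262 (chosen after seeing the data), and 0 to 1 without single libraries. In the libraries labelled MC38 (1) it became 0 with a 1 CPM filter, 0 with DESeq2, 0 with no run term, 0 with the 2 groups alone, and 0 to 2 without single libraries. With the library sets as a replicate block the B16OVA count became 2, and no other KO count of called members moved by over 1.5 times; that of the chromosome 4 Zfp genes in MCA101OVA went from 3 to 7. B16OVA WT against melanocytes (19) gave 33 with DESeq2 and 10 to 27 without single libraries, with 12 without B16OVA WT replicate 4, 12 without melanocyte replicate 2 and 10 without melanocyte replicate 4. The median log2 fold of the members in B16 (-0.23) was -0.50 with WT in place of Ctrl and -0.573 to -0.0329 without single libraries. Depth limits the genes near 0, in which a group can hold 0 or a few counts.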
